A study of Mus musculus with 8 samples.

Results

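The genes described here are the ligands, receptors, Smads, target genes, and antagonists of the bone morphogenetic protein (BMP) and transforming growth factor beta (TGF-beta) pathways. They were chosen by name from a list of 52 genes, of which 51 were present among the 16536 genes counted, and *Inhbb* was not analysed here. RNA was sequenced from mCherry+CD73+ cells sorted by flow cytometry out of the femoral growth plates of *Pthrp-mCherry* mice. In these mice the red fluorescent protein mCherry reports *Pthlh*, the gene for parathyroid hormone-related protein (PTHrP), and CD73 is a surface protein of resting zone cells. All 8 mice carried the reporter and no other allele is given for them. They were injected i.p. each day from P30 to P36 and killed on P38. A group of 4 mice received SAG, an agonist of Smoothened that activates Hedgehog (Hh) signaling throughout the body, and the other 4 received only the vehicle, DMSO. Each library came from both femora of 1 mouse. The comparison asks how these signaling genes differed in level after systemic treatment with SAG.

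BMPs, growth and differentiation factors (GDFs), activins, and TGF-betas are secreted dimers that bind a type II receptor, which then phosphorylates a type I receptor. BMP-type receptors pass the signal to Smad1, Smad5, and Smad9, and activin and TGF-beta-type receptors to Smad2 and Smad3, and both sets enter the nucleus with the common partner Smad4. In the growth plate, BMP signaling promotes cartilage formation and chondrocyte maturation, TGF-beta signaling restrains terminal maturation, and BMP antagonists are found in the resting zone.

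Upstream sequence was found for 35 of the 51 members in the RefSeq table (GRCm38.p6), matched by symbol, and the 250 bases before the listed start of 4 of them are shown. *Inhba* was the ligand that rose with SAG, *Bmp5* and *Smad5* were the members for which every SAG mouse lay below every DMSO mouse, and *Id2* held a match to both motifs that occurred among the members. Capitals mark matches on either strand to the GC-rich BMP-Smad motif GGCGCC, to the E-box CAGCTG, to the pair of Smad boxes GTCTAGAC, or to the GLI motif GACCACCCA. None of these motifs overlaps another in the stretches shown. The windows are chr13:16011601-16011850 on the plus strand for *Inhba*, chr9:75775115-75775364 on the plus strand for *Bmp5*, chr13:56702802-56703051 on the plus strand for *Smad5*, which has 3 listed starts, and chr12:25096093-25096342 on the minus strand for *Id2*. By the gene bounds of GENCODE M21, the *Id2* window lies within the gene, which spans 25093799 to 25097140. There *Smad5* starts at 56703010, so the end of its window, with the marked GGCGCC, lies within that gene.
Inhba: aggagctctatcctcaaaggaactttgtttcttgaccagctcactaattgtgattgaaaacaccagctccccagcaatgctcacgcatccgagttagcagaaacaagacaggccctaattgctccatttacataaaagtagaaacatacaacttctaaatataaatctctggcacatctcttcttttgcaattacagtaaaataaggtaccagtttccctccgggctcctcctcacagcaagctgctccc
Bmp5: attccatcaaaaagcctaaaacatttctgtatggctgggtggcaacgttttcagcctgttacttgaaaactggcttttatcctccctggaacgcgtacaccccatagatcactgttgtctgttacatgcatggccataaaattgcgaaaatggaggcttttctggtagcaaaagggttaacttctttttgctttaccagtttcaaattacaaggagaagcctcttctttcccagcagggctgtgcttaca
Smad5: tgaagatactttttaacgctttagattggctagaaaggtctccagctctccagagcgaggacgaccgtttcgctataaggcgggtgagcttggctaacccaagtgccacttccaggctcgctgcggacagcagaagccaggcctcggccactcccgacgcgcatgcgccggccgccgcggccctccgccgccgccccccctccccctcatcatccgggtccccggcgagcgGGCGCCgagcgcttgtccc
Id2: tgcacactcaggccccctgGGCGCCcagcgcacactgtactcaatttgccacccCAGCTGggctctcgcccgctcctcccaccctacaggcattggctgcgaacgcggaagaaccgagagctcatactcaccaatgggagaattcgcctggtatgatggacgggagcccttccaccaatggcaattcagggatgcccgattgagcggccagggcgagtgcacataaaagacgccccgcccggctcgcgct
The stretches of *Inhba* and *Bmp5* had 43.2% and 42.8% G and C and held none of the 4 motifs, while those of *Smad5* and *Id2* had 66.4% and 62.8%. GGCGCC was found before the listed start for 11 of the 35 members, or 31.4%, beside 10.8% of the 27025 gene symbols in the table. These were *Bmpr1a*, *Bmpr2*, *Chrd*, *Grem1*, *Id2*, *Id4*, *Ltbp4*, *Smad5*, *Smad9*, *Smurf2*, and *Tgfbr1*. The motif holds only G and C, and the symbols were not matched to the members in G and C content. The part of that content in the difference was not tested. CAGCTG was found for 3 of the 35 (*Bmpr1b*, *Gdf11*, and *Id2*), or 8.57%, beside 14.7% of all symbols. GTCTAGAC and GACCACCCA were found for 0 of the 35, beside 0.200% and 0.255% of all symbols.

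Libraries held 24971992 to 46593090 counts, so that 3 counts, taken as the limit that a count of 0 allows, correspond to 0.0670 to 0.114 counts per 1000000 counts (CPM). Cartilage genes were abundant in all 8 libraries, with 19011 to 110427 CPM summed over 13 chondrocyte markers. All 13 had a negative log2 fold change, of -1.21 to -0.80, and 0 of them passed an adjusted p of 0.05, although all 13 had an unadjusted p under 0.05, and DESeq2 called 5 and voom 11 of them. RNA of blood cells was present too: 12 of 15 neutrophil markers rose with SAG, with a sum over the list of 5465 to 15528 CPM in the DMSO mice and 29454 to 46993 CPM in the SAG mice, and 3 of 8 tested B lineage markers fell, with a sum over the list of 78.8 to 351.8 CPM in the DMSO mice and 17.9 to 38.4 CPM in the SAG mice. Among 4 hypertrophic markers, *Col10a1* and *Ihh* fell. The other 10 of the 14 marker lists had 0 calls in edgeR among 57 genes, with 9 at an unadjusted p under 0.05, 5 called by DESeq2, and 3 by voom. *Pthlh*, the gene of the reporter, was at 14.9 to 22.1 CPM in the DMSO mice and 18.4 to 29.9 CPM in the SAG mice, and *Nt5e*, which encodes CD73, at 184.2 to 269.6 and 148.7 to 174.0 CPM. The Hh targets *Gli1* and *Ptch1* had log2 fold changes of -1.49 ± 0.37 (SE) and -1.21 ± 0.34, with adjusted p of 0.0569 and 0.0859. Both were thus lower on average with the agonist, and neither passed the test. The paper also reports lower expression of the Hh pathway in these cells after SAG. In bulk RNA, fewer cells of a type and less RNA per cell cannot be told apart.

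All 51 members passed the filter on low counts, and 2 of them rose with SAG, *Inhba* and *Acvrl1*, which is 3.92% of the members beside 2.62% of the 15421 genes tested. A lower level was called for 0 members, where the background was 0.266%. At an unadjusted p under 0.05, 3 members were higher (*Inhba*, *Acvrl1*, and *Smad2*), or 5.88% beside a background of 9.58%, and 6 were lower (*Bmp3*, *Bmp5*, *Bmp7*, *Tgfbr2*, *Smad5*, and *Bambi*), or 11.8% beside 6.5%. Every SAG mouse lay above every DMSO mouse for 3 members, the same 3, against 7.9% of all genes tested, and below for 2, *Bmp5* and *Smad5*, against 3.84%. The log2 fold change was negative for 35 of the 51 members and the median was -0.30, while over all genes tested 54.8% were negative and the median was -0.08. By DESeq2's Wald test *Bmp3*, *Bmp5*, *Bmp7*, and *Smad5* were also called lower, and by limma voom *Bmp3*, *Bmp7*, and *Tgfbr2* were. These methods called more genes lower than edgeR did: DESeq2 413 of 16536 genes and voom 388 of 15421, beside 41 of 15421.

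**Figure D1:**
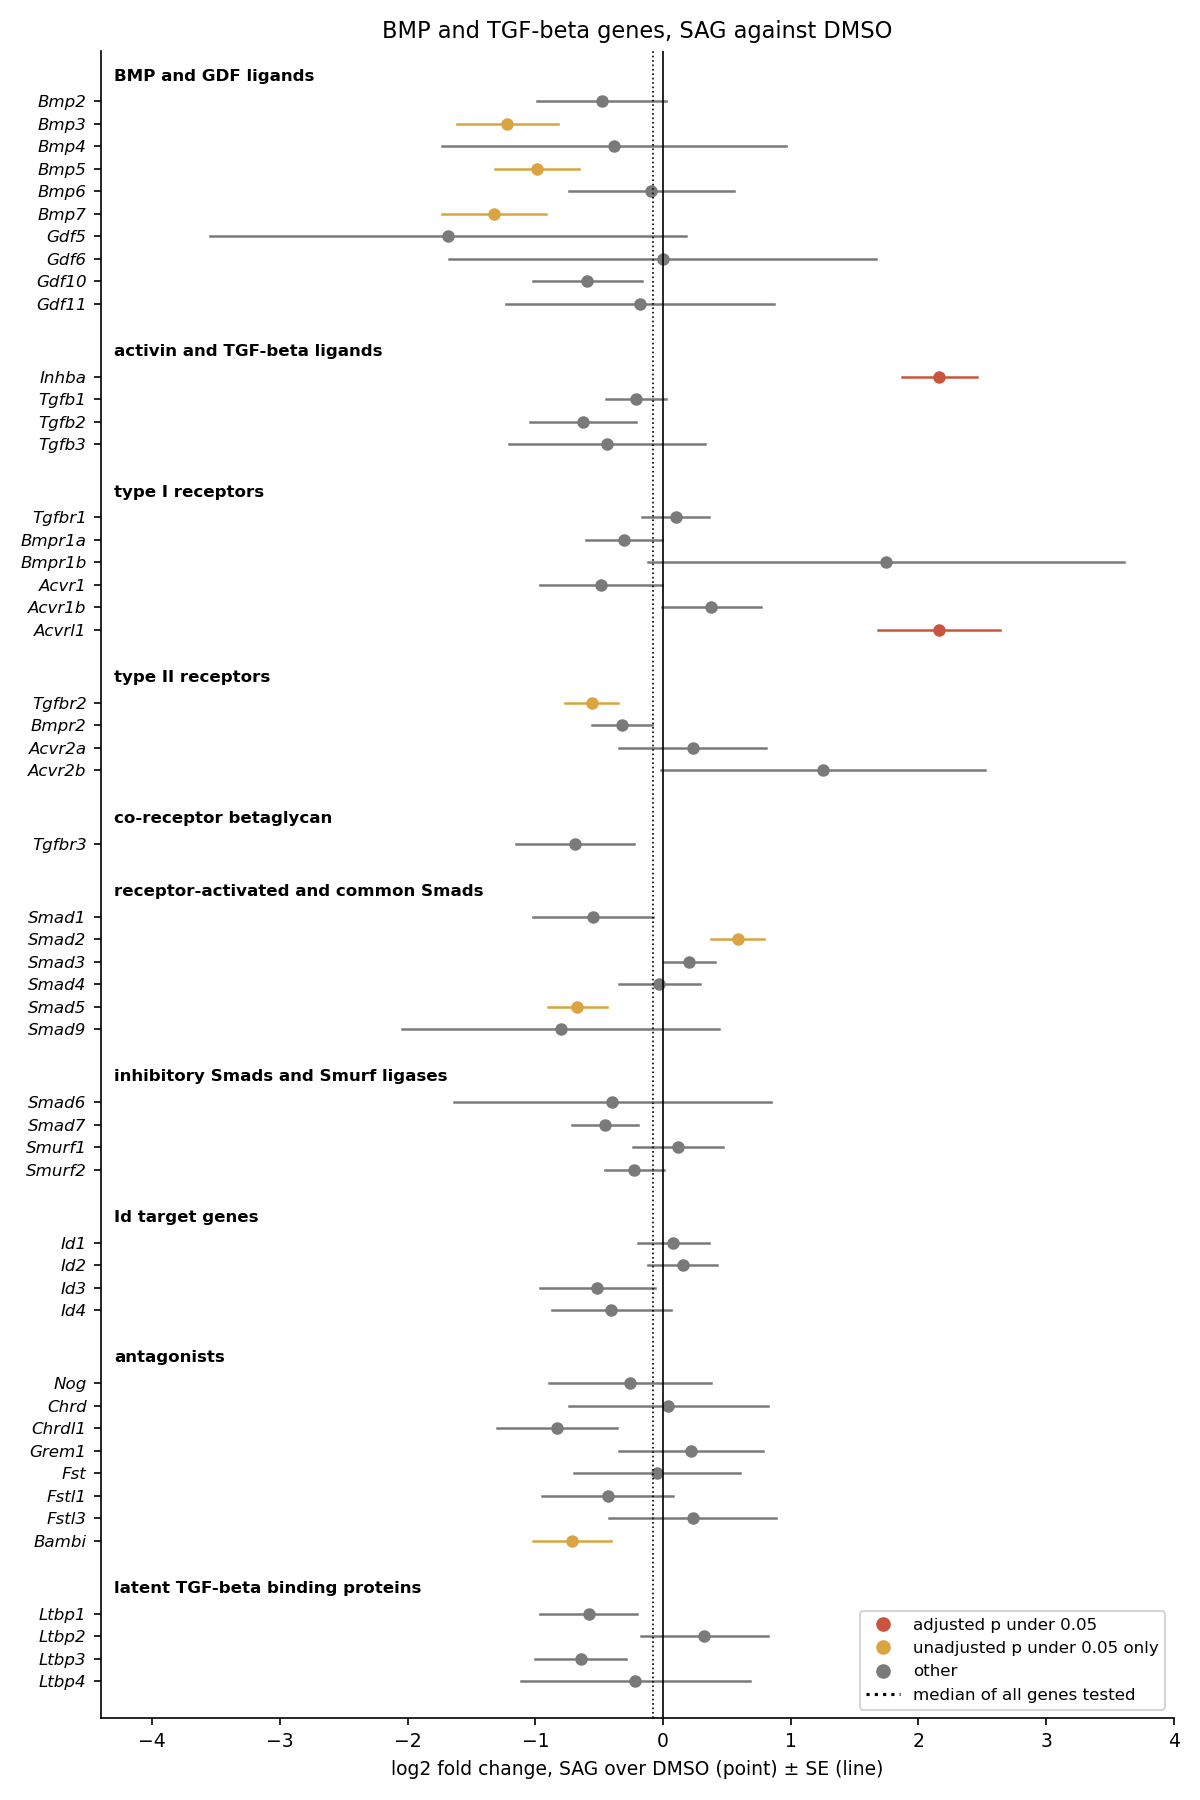
Log2 fold change of SAG over DMSO (x axis, points, with lines of ± 1 SE) for each of the 51 members (y axis), grouped by role. *Inhba* and *Acvrl1*, both at 2.16 in red, are the members with an adjusted p under 0.05, those with an unadjusted p under 0.05 only are in yellow, and the dotted line is the median of all genes tested, -0.08.

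**Figure D2:**
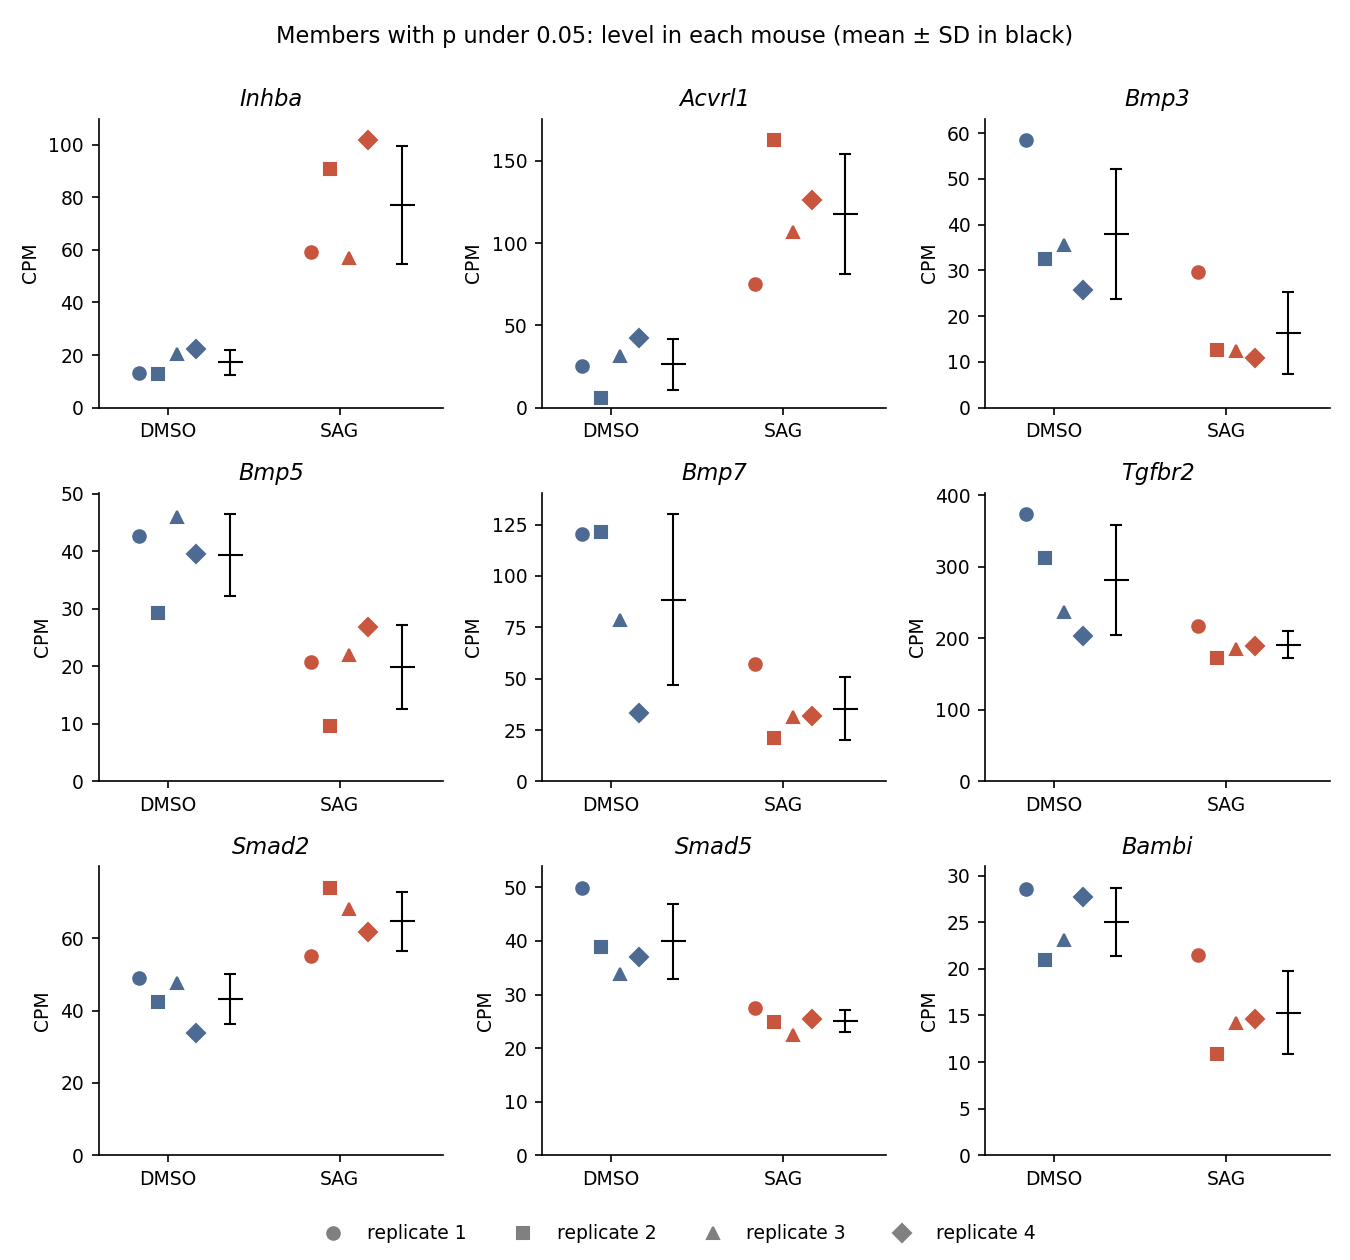
Level in CPM (y axis, from 0) of the 9 members with an unadjusted p under 0.05 in each of 4 DMSO and 4 SAG mice, with the marker shape giving the replicate number and mean ± SD in black. The groups of points do not overlap for *Inhba*, *Acvrl1*, *Smad2*, *Bmp5*, and *Smad5*, and they overlap for *Bmp3*, *Bmp7*, *Tgfbr2*, and *Bambi*.

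*Inhba* encodes the beta A subunit, which pairs with itself to form activin A, a ligand of the Smad2 and Smad3 branch. The gene lies on the plus strand of chromosome 13 from 16011851 to 16031621 (GRCm38), and an antisense gene and a pseudogene overlap it on the other strand. In the DMSO mice *Inhba* was at 13.4, 12.8, 20.3, and 22.4 CPM, and in the SAG mice at 59.3, 90.7, 56.8, and 101.7 CPM. The lowest SAG mouse was thus above the highest DMSO mouse, and *Inhba* rose 4.48-fold, a log2 fold change of 2.16 ± 0.29 (SE), with an adjusted p of 0.0102. The call was kept without any 1 of the 8 mice, with log2 fold changes of 2.00 to 2.34 and adjusted p of 0.00118 to 0.0454.

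The 3 TGF-beta genes did not pass the test. *Tgfb1*, the isoform with the highest level per kb of exon in all libraries but DMSO replicate 1, was at 92.9, 97.1, 118.5, and 173.2 CPM in the DMSO mice and 87.6, 127.9, 113.2, and 87.7 CPM in the SAG mice. Its groups overlapped throughout, with a log2 fold change of -0.21 ± 0.24. *Tgfb2* was at 107.4, 61.6, 39.9, and 27.3 CPM with DMSO and at 49.5, 19.7, 37.0, and 46.8 CPM with SAG, a log2 fold change of -0.63 ± 0.42. *Tgfb3* had means of 39.4 ± 29.4 and 29.2 ± 15.4 CPM (SD, n = 4) and was at 1.59 CPM in DMSO replicate 4. Per kb, *Tgfb1* made up 54.7% ± 23.3 of the 3 TGF-beta transcripts in the DMSO mice and 58.5% ± 16.0 in the SAG mice, ranging from 31.5% to 86.9% among the DMSO mice alone. *Inhba* made up 3.45% to 8.14% of the sum of *Inhba* and the 3 TGF-beta genes in the DMSO mice and 18.9% to 31.1% in the SAG mice, a share chosen after the values were seen.

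*Acvrl1* encodes ALK1, a type I receptor best known from endothelial cells, where it binds circulating BMPs. It lies on the plus strand of chromosome 15 from 101128522 to 101145336 and is overlapped by an antisense gene. Its level was 25.4, 5.98, 31.1, and 42.6 CPM in the DMSO mice and 75.0, 162.5, 106.9, and 125.9 CPM in the SAG mice. No SAG mouse overlapped the DMSO mice, and *Acvrl1* rose 4.48-fold, a log2 fold change of 2.16 ± 0.48, with an adjusted p of 0.0346. Leaving out 1 mouse ended the call in 5 of 8 cases: the adjusted p was 0.0945 without DMSO replicate 1, 0.108 without DMSO replicate 3, 0.116 without SAG replicate 2, 0.0780 without SAG replicate 3, and 0.100 without SAG replicate 4, with log2 fold changes of 1.97 to 2.22. Over all 15 alternatives the adjusted p was 0.000381 to 0.116. The summed level of 5 endothelial markers was 31.8 to 94.7 CPM in the DMSO mice and 31.6 to 67.8 CPM in the SAG mice, none of them was called, and their median log2 fold change was -0.63.

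The other 5 type I receptor genes did not pass the test. *Tgfbr1*, the TGF-beta receptor, had means of 39.6 ± 13.0 and 42.4 ± 3.66 CPM in the DMSO and SAG mice, and *Acvr1b*, an activin receptor, 23.9 ± 10.8 and 31.1 ± 8.17 CPM. The BMP receptor genes *Bmpr1a* (42.0 ± 4.93 and 34.0 ± 13.6 CPM) and *Acvr1* (39.7 ± 21.5 and 28.3 ± 9.69 CPM) had negative log2 fold changes, of -0.30 ± 0.30 and -0.49 ± 0.48. *Bmpr1b* stayed at or under 0.97 CPM in the DMSO mice and reached 5.38 CPM only in SAG replicate 3. Summed in CPM, the 6 type I receptor genes, *Acvrl1* among them, were at 160.0 to 184.0 in the DMSO mice and 207.5 to 282.9 in the SAG mice. Per kb, *Acvrl1* made up 18.9%, 4.82%, 21.03%, and 28.6% of the 6 in the DMSO mice and 41.7%, 63.6%, 49.6%, and 51.2% in the SAG mice. It was thus the most abundant type I receptor transcript in each SAG mouse. This share was chosen after the values were seen, so it is no separate support for the call. The share of *Tgfbr1* was 18.7% ± 5.81 and 12.5% ± 1.73, and the groups overlapped.

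The summed level of the 15 neutrophil markers, of which 12 rose and *Elane*, *Mpo*, and *Ly6g* did not pass the test, was set beside the 2 members that rose. Within the DMSO group, *Inhba*, *Acvrl1*, and the summed neutrophil markers had the same order of mice, lowest in replicate 2 and highest in replicate 4. In the SAG group *Acvrl1* had the order of the markers too, lowest in replicate 1 and highest in replicate 2. *Inhba* had another order there, lowest in replicate 3 and highest in replicate 4. *Inhba* was at 2.04, 2.35, 1.88, and 1.44 CPM per 1000 CPM of neutrophil markers in the DMSO mice and at 2.01, 1.93, 1.77, and 2.44 in the SAG mice. On this scale the groups overlapped, with means of 1.93 ± 0.38 and 2.04 ± 0.29 (SD, n = 4). *Acvrl1* was at 3.88, 1.09, 2.87, and 2.74 CPM per 1000 CPM in the DMSO mice and 2.55, 3.46, 3.32, and 3.02 in the SAG mice, and these groups overlapped too. The summed neutrophil markers themselves had means of 9594 CPM with DMSO and 37590 CPM with SAG. Any gene with a rise of about that size overlaps on this scale, so the overlap does not show which cells expressed the gene. Against the 13 chondrocyte markers, both genes were higher in every SAG mouse, at 0.121 to 0.472 against 1.17 to 4.77 CPM per 1000 CPM for *Inhba*. The sum of those markers was itself lower on average with SAG, at 42076 against 84567 CPM. That widens the gap on this scale, so it is no check of the 2 calls. These ratios were chosen after the values were seen, and the part of the neutrophil markers in the 2 calls was not tested further.

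**Figure D3:**
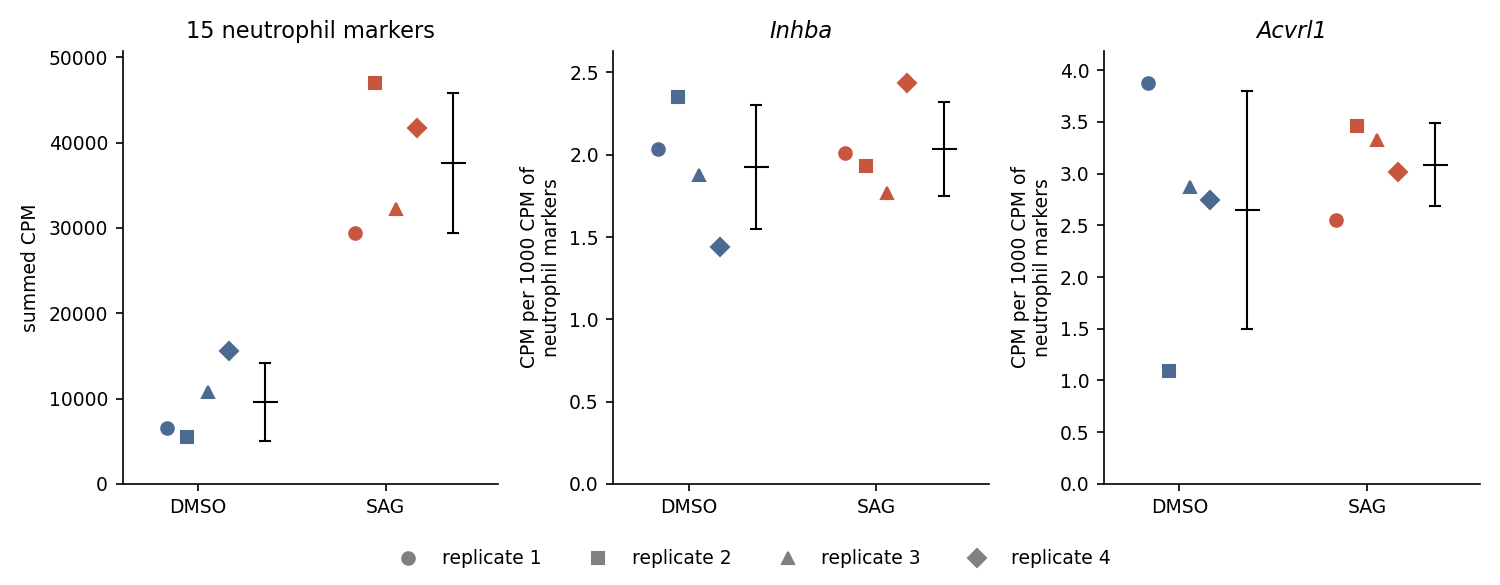
Left, summed CPM of 15 neutrophil markers in each mouse, and middle and right, *Inhba* and *Acvrl1* in CPM per 1000 CPM of those markers (y axes from 0), with mean ± SD in black. The summed markers are higher in each of the 4 SAG mice than in each DMSO mouse, whereas the points of the groups overlap for both ratios.

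By edgeR all 10 BMP and GDF ligand genes had a log2 fold change of 0.00 or below, with a median of -0.54, and 0 were called, with 3 at an unadjusted p under 0.05 (*Bmp3*, *Bmp5*, and *Bmp7*). DESeq2 called these 3 lower and voom *Bmp3* and *Bmp7*, while the sign of *Bmp4*, *Bmp6*, *Gdf6*, and *Gdf11* turned in 1 or more of the alternatives. *Bmp7*, a ligand of cartilage and kidney, was at 120.2, 121.5, 78.7, and 33.5 CPM with DMSO and 57.1, 21.03, 31.2, and 31.9 CPM with SAG. Its log2 fold change was -1.33 ± 0.41 (adjusted p = 0.115), DMSO replicate 4 lay within the SAG range, and without that mouse *Bmp7* was called lower at -1.57 (adjusted p = 0.00886), in a range of 0.00712 to 0.306 over all 15 alternatives. *Bmp3*, an atypical member that opposes other BMPs, was at 58.5, 32.5, 35.4, and 25.7 CPM with DMSO and 29.7, 12.5, 12.3, and 10.8 CPM with SAG. SAG replicate 1 was within the DMSO range, the log2 fold change was -1.22 ± 0.39 (adjusted p = 0.134), and without that mouse it was -1.67 (adjusted p = 0.0385), in a range of 0.0166 to 0.349 over the 15 alternatives.

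*Bmp5*, known from the short ear mouse for its role in cartilage, was at 42.6, 29.3, 45.9, and 39.6 CPM in the DMSO mice. In the SAG mice it was at 20.8, 9.58, 22.0, and 26.9 CPM, below the DMSO mice without overlap. The log2 fold change was -0.99 ± 0.33, with an adjusted p of 0.147. *Gdf10*, also called Bmp3b, was at 83.9, 65.5, 105.5, and 34.0 CPM with DMSO and 34.5, 23.9, 40.8, and 92.3 CPM with SAG, so that SAG replicate 4 was the second highest of all 8. *Bmp2* had means of 20.1 ± 4.03 and 14.4 ± 12.05 CPM and *Bmp6* of 5.83 ± 3.07 and 5.47 ± 2.07 CPM. *Bmp4*, *Gdf5*, and *Gdf11* stayed under 5 CPM in every library, and both *Bmp4* and *Gdf5* had 0 counts in DMSO replicate 4, which allows up to 0.114 CPM. *Gdf5* also had 0 counts in SAG replicates 1 and 2.

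*Gdf6*, a joint-forming ligand, split both groups in the same way. It was at 0.02, 0, 23.6, and 35.5 CPM in the DMSO mice and 1.44, 0.38, 31.2, and 25.9 CPM in the SAG mice, low in replicates 1 and 2 and high in replicates 3 and 4 of each group. Its group means were 14.8 ± 17.7 and 14.7 ± 16.1 CPM, and the log2 fold change was 0.00 ± 1.67. The summed erythroid markers were likewise at 569.6 and 548.9 CPM in DMSO replicates 1 and 2 and at 2009 and 4960 CPM in replicates 3 and 4, and at 420.0, 304.6, 3402, and 1525 CPM in the SAG mice. This comparison was chosen after the values of *Gdf6* were seen, and the part of the erythroid markers in the split was not tested. The labels give no link between DMSO and SAG mice of the same replicate number. Ordered per kb of exon, the ligand levels in the DMSO mice ran from *Bmp7* (22.0 CPM per kb) and *Gdf10* (13.9) to *Bmp5* (9.77), with *Bmp4* lowest at 0.46. In the SAG mice *Gdf10* (9.19) and *Bmp7* (8.79) came first and did not differ beyond their spread.

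*Tgfbr2*, the TGF-beta receptor, was the most abundant type II receptor in every library. It was at 373.7, 312.1, 236.1, and 203.3 CPM in the DMSO mice and 217.3, 172.5, 184.7, and 188.9 CPM in the SAG mice. Only SAG replicate 1 reached into the DMSO range, and the log2 fold change was -0.56 ± 0.21 (adjusted p = 0.200). Without DMSO replicate 4 *Tgfbr2* was called lower, at -0.66 (adjusted p = 0.0498, and 0.0429 to 0.436 over the 15 alternatives). The BMP receptor *Bmpr2* had means of 109.4 ± 31.1 and 87.7 ± 14.8 CPM, and the activin receptor *Acvr2a* 7.31 ± 3.12 and 8.60 ± 4.65 CPM, while *Acvr2b* was at or under 1.33 CPM in all 8 libraries. Per kb, *Tgfbr2* made up 82.2% ± 3.20 of the 4 in the DMSO mice and 78.0% ± 2.01 in the SAG mice. *Tgfbr3* encodes betaglycan, which presents TGF-beta to *Tgfbr2* and binds inhibin. It was at 301.1, 303.5, 251.8, and 82.2 CPM with DMSO and 242.1, 55.3, 106.0, and 178.0 CPM with SAG, low in DMSO replicate 4 and SAG replicate 2, with a log2 fold change of -0.69 ± 0.46.

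The 5 receptor-activated Smads differed in direction. *Smad5*, of the BMP branch, was at 49.9, 38.9, 33.8, and 37.0 CPM in the DMSO mice and 27.5, 24.9, 22.4, and 25.5 CPM in the SAG mice. The groups did not overlap, the log2 fold change was -0.67 ± 0.23, and the adjusted p was 0.166. *Smad2*, of the activin and TGF-beta branch, was at 49.1, 42.3, 47.5, and 33.8 CPM in the DMSO mice and 55.0, 74.0, 68.1, and 61.9 CPM in the SAG mice. Here all SAG mice were above the DMSO mice, with a log2 fold change of 0.58 ± 0.21 and an adjusted p of 0.180. *Smad1* had means of 26.2 ± 15.2 and 17.9 ± 4.85 CPM and *Smad3* of 48.8 ± 4.23 and 56.3 ± 8.49 CPM. *Smad9* was uneven, at 1.84, 0.07, 10.6, and 13.6 CPM with DMSO and 0.92, 1.05, 1.35, and 11.6 CPM with SAG. The common *Smad4* was at 41.1 ± 15.8 and 40.3 ± 9.57 CPM, a log2 fold change of -0.03 ± 0.31.

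A share within a library does not depend on its scaling. Per kb of exon, *Smad1*, *Smad5*, and *Smad9* together made up 49.7%, 43.8%, 39.8%, and 41.7% of the 5 receptor-activated Smad transcripts in the DMSO mice. In the SAG mice they made up 32.8%, 24.9%, 26.3%, and 29.1%, so that each SAG mouse was below each DMSO mouse, with means of 43.8% ± 4.27 and 28.3% ± 3.49. In CPM *Smad5* was already lower and *Smad2* already higher in every SAG mouse, and neither passed the test. The share in part restates those genes, so it is no separate support for a change in them. Relative to the 13 chondrocyte markers, *Smad2* was at 0.436 to 0.712 CPM per 1000 CPM in the DMSO mice and 1.083 to 3.89 in the SAG mice, and *Smad5* at 0.401 to 0.779 and 0.481 to 1.31, with overlap. Relative to the neutrophil markers both were lower in every SAG mouse. The summed neutrophil markers themselves had means of 9594 CPM with DMSO and 37590 CPM with SAG. A gene that does not rise as much falls on that scale. The chondrocyte sum had means of 84567 and 42076 CPM, which raises ratios in the SAG mice. Both sets of ratios were chosen after the values were seen.

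**Figure D4:**
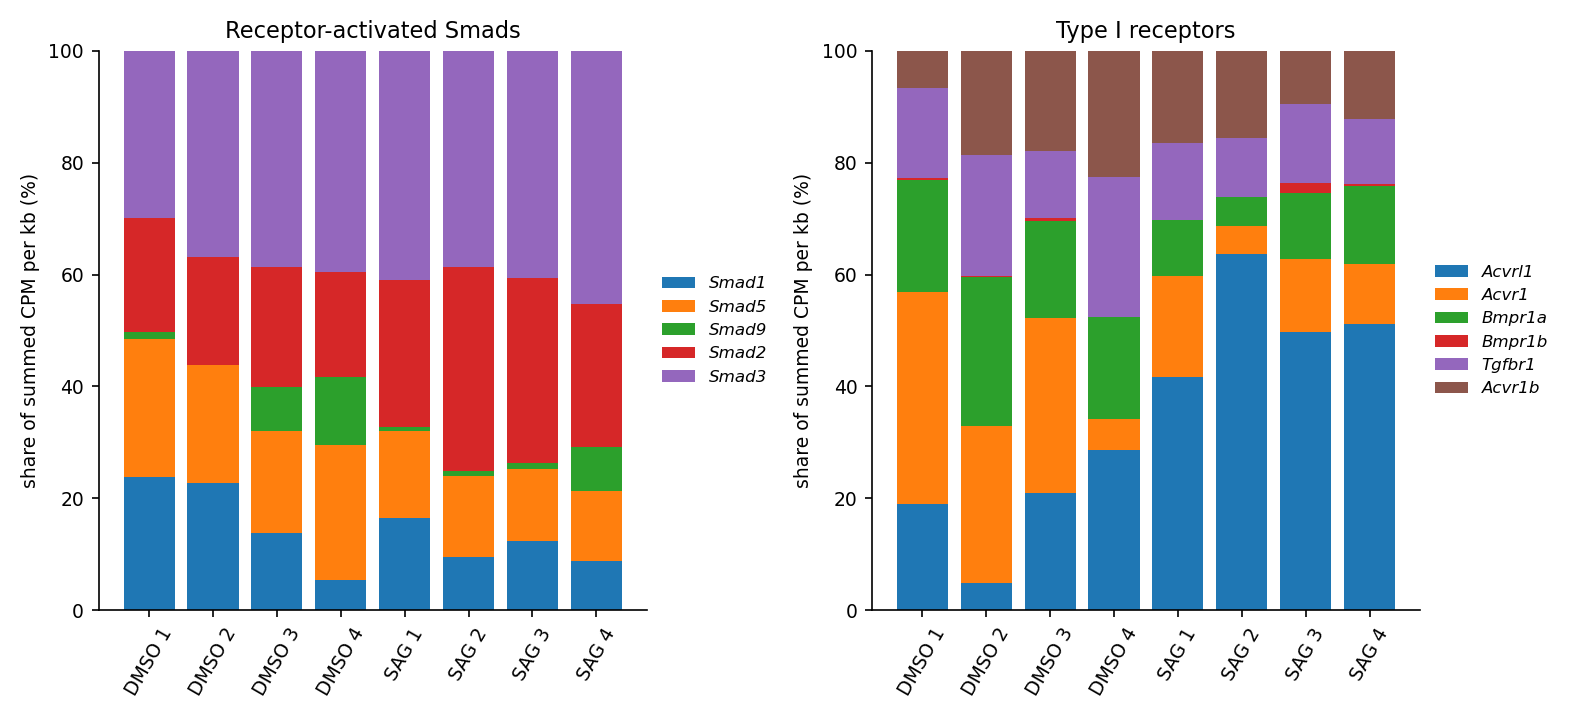
Share (%) of each gene in the summed CPM per kb of the 5 receptor-activated Smads (left) and the 6 type I receptors (right), with 1 stacked bar from 0 to 100% per mouse. *Smad1*, *Smad5*, and *Smad9*, at the bottom left, reach 39.8% to 49.7% in the DMSO mice and 24.9% to 32.8% in the SAG mice. *Acvrl1*, at the bottom right, is largest in the SAG mice, a share chosen after the values were seen.

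None of the intracellular inhibitors passed the test. *Smad7*, which blocks TGF-beta and BMP receptors, was at 44.6, 34.5, 52.9, and 32.7 CPM in the DMSO mice and 30.1, 38.7, 24.3, and 26.9 CPM in the SAG mice. SAG replicate 2 alone was within the DMSO range, and the log2 fold change was -0.46 ± 0.26. *Smurf2*, a ubiquitin ligase that marks receptors and Smads for degradation, was at 60.8, 56.9, 36.2, and 64.3 CPM with DMSO and 40.0, 44.5, 49.98, and 52.2 CPM with SAG, within the same range. *Smurf1* had means of 26.1 ± 14.1 and 28.3 ± 3.70 CPM. *Smad6*, an inhibitor of the BMP branch, was at or under 7.11 CPM in all 8 libraries and had 0 counts in DMSO replicate 4.

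The Id genes, which encode inhibitors of basic helix-loop-helix factors, are direct targets of the BMP Smads in many cells. None of the 4 passed the test, and 2 had a positive and 2 a negative log2 fold change. *Id2* was at 64.8, 67.2, 48.3, and 32.8 CPM in the DMSO mice and 73.4, 49.4, 69.0, and 45.3 CPM in the SAG mice, which overlapped, with a log2 fold change of 0.15 ± 0.27. *Id1*, the most abundant per kb, was at 37.98 and 40.2 CPM per kb on average, a log2 fold change of 0.08 ± 0.28. *Id3* had means of 26.0 ± 9.30 and 18.2 ± 10.2 CPM and *Id4* of 11.5 ± 6.25 and 8.68 ± 2.08 CPM. *Id2* made up 27.9% ± 3.60 of the 4 Id transcripts per kb in the DMSO mice and 32.8% ± 8.74 in the SAG mice.

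Of the 8 antagonists, *Bambi*, a pseudoreceptor that lacks a kinase domain, was at 28.5, 20.9, 23.1, and 27.7 CPM in the DMSO mice and 21.5, 10.9, 14.2, and 14.6 CPM in the SAG mice. SAG replicate 1 exceeded the lowest DMSO mouse, and the log2 fold change was -0.71 ± 0.31 (adjusted p = 0.270). *Chrdl1*, which binds BMPs outside the cell, was at 64.0, 62.4, 41.8, and 9.38 CPM with DMSO and 32.0, 18.4, 25.6, and 23.9 CPM with SAG. DMSO replicate 4 was the lowest of all 8, and without it *Chrdl1* was called lower at -1.14 (adjusted p = 0.0189), in place of -0.83 (adjusted p = 0.443). Over the 15 alternatives its adjusted p ran from 0.0189 to 0.734. *Fstl1*, a secreted glycoprotein of mesenchymal cells, was at 320.9, 123.0, 80.0, and 40.1 CPM with DMSO and 156.8, 80.2, 75.9, and 104.5 CPM with SAG, highest in replicate 1 of both groups. It made up 43.7% ± 14.3 and 45.0% ± 1.91 of the antagonist transcripts per kb.

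The remaining antagonists overlapped between the groups. *Grem1* had means of 18.0 ± 18.5 and 20.96 ± 4.02 CPM, *Nog* of 8.84 ± 4.68 and 7.41 ± 6.04 CPM, and *Chrd* of 5.13 ± 4.12 and 5.28 ± 4.89 CPM in the DMSO and SAG mice. The activin-binding follistatins were at 5.68 ± 4.49 and 5.50 ± 1.21 CPM for *Fst* and 15.4 ± 11.1 and 18.1 ± 6.41 CPM for *Fstl3*. Per kb, the ratio of *Inhba* to the sum of *Fst* and *Fstl3* was 0.230, 0.163, 0.413, and 3.67 in the DMSO mice and 0.855, 1.76, 1.80, and 1.51 in the SAG mice. The 3 DMSO mice other than replicate 4 were below the SAG mice and replicate 4 was above them, in a ratio chosen after the values were seen.

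Some latent TGF-beta binding proteins tether inactive TGF-beta to the matrix, and none of the 4 genes of this family passed the test. *Ltbp3*, the most abundant, was at 193.1, 116.3, 190.5, and 78.7 CPM with DMSO and 112.2, 41.9, 94.5, and 121.2 CPM with SAG, overlapping, with a log2 fold change of -0.65 ± 0.36. *Ltbp1* was at 143.8, 66.3, 39.1, and 52.4 CPM with DMSO and 63.9, 31.7, 58.4, and 47.4 CPM with SAG, highest in DMSO replicate 1. *Ltbp2* had means of 16.4 ± 7.61 and 20.6 ± 9.74 CPM. *Ltbp4* was at 95.1 CPM in DMSO replicate 1 and at 2.66 to 7.88 CPM in the other DMSO mice, against 16.2 to 45.2 CPM in the SAG mice.

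The spread among mice of a group was compared with that of other genes. Over the 39 members with a mean of at least 10 CPM, the median SD of log2(CPM + 0.5) was 0.62 among the DMSO mice and 0.45 among the SAG mice, beside 0.45 and 0.33 over the 9312 such genes of the whole table. DMSO replicate 4 was the lowest of its group for 29 of 51 members, or 56.9%, against 38.5% of all genes tested, and SAG replicate 2 for 29 as well, against 25.5%. The same mice were the lowest of their groups for 12 and 13 of the 13 chondrocyte markers. Relative to the summed chondrocyte markers, *Bmp3*, *Bmp5*, *Bmp7*, *Tgfbr2*, *Smad5*, and *Bambi*, the 6 members that were lower at an unadjusted p under 0.05, all overlapped between the groups. Of these, *Bmp3*, *Bmp7*, *Tgfbr2*, and *Bambi* overlapped in CPM too. The summed markers had means of 84567 CPM with DMSO and 42076 CPM with SAG, which raises ratios in the SAG mice. *Bmp7* was at 1.00 ± 0.23 and 0.88 ± 0.27 CPM per 1000 CPM of those markers, and *Bmp5* at 0.518 ± 0.234 and 0.476 ± 0.046. *Tgfbr2* was at 3.43 ± 0.61 and 5.24 ± 2.57, and *Smad5* at 0.510 ± 0.181 and 0.706 ± 0.403. These ratios were also chosen after the values were seen.

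**Figure D5:**
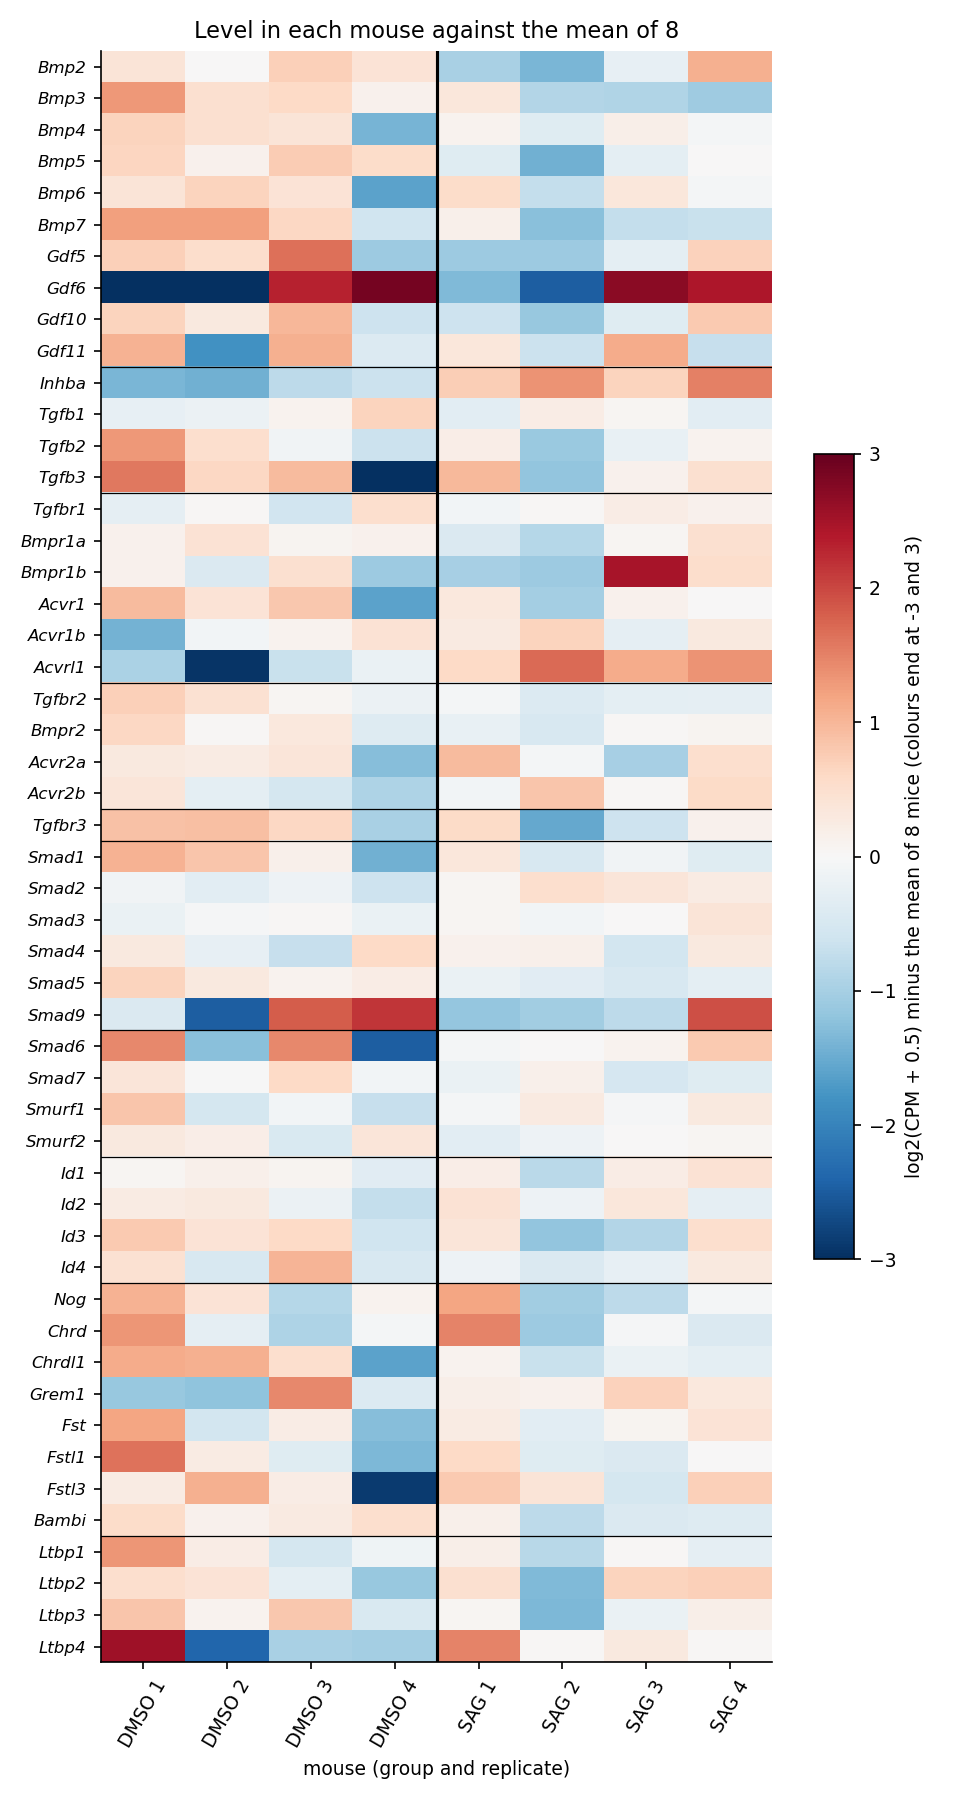
Log2(CPM + 0.5) of each of the 51 members (rows, grouped by role) in each mouse (columns) minus the mean over 8 mice, with red above and blue below it and colours ending at -3 and 3. *Inhba* and *Acvrl1* are blue in the 4 DMSO and red in the 4 SAG mice, *Gdf6* is blue in replicates 1 and 2 and red in 3 and 4 of both groups, and DMSO replicate 4 and SAG replicate 2 hold the lowest value of their group for 29 members each.

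Among 92 other genes of the pathways, 77 were present and 70 were tested. A lower level was called for 1, *Fn1*, and a higher level for 0, beside 0.266% and 2.62% of all genes tested. At an unadjusted p under 0.05, 8 were lower and 2 higher, beside 6.5% and 9.58%. *Fn1*, which encodes the matrix protein fibronectin and is a target of TGF-beta signaling in many cells, was at 22570, 25055, 17117, and 11911 CPM in the DMSO mice and 8751, 4154, 9438, and 8104 CPM in the SAG mice. Its groups did not overlap, and it fell with SAG, at a log2 fold change of -1.33 ± 0.31 with an adjusted p of 0.0445. That call was lost in 7 of 8 fits that left out 1 mouse, with adjusted p of 0.105, 0.139, and 0.114 without DMSO replicates 1, 2, and 3 and of 0.0760, 0.0875, 0.0882, and 0.127 without SAG replicates 1 to 4, and it was kept without DMSO replicate 4 (adjusted p = 0.00737). Over the 19 tested extracellular modulators 17 log2 fold changes were negative, with a median of -0.63. Over the 14 tested target genes 11 were, with a median of -0.75. Of all genes tested 54.8% were negative, with a median of -0.08. All 13 chondrocyte markers were negative, with a median of -0.99. The part of cartilage RNA in the lower levels of these lists and of *Fn1* was not tested. The 23 intracellular regulators had a median of 0.03, the 10 further ligands and processing enzymes of -0.41, and the 4 further receptors of -0.33.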

How the data were processed

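RNA sequencing used a stranded total RNA kit, with 4 libraries of sorted cells from DMSO mice and 4 from SAG mice. The values deposited are read counts for each gene that the authors had not normalized, and the submitters' processing notes name kallisto, DESeq2, and GRCm38. Whether strand was used in counting is not given in the sources used here, and 9 members (*Bmp4*, *Bmp6*, *Gdf5*, *Tgfb3*, *Acvr1*, *Acvr2a*, *Chrd*, *Fstl3*, and *Ltbp3*) overlap a coding gene on the other strand. Libraries were matched to mice by their labels. The libraries held 24971992 to 46593090 counts, and limits from counts cover counting error only.

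The members and gene lists were chosen with earlier results of these data known. Counts were fitted in R 4.3.3 with edgeR 4.0.16 (filterByExpr, TMM, robust quasi-likelihood test, no covariate) on 15421 genes, with Benjamini-Hochberg adjustment over all of them and a threshold of 0.05. CPM used the TMM factors. CPM per kb used the summed exon length of GENCODE M21 (GRCm38). Values of all 8 mice were printed for members that were called, had an unadjusted p under 0.05 or groups without overlap, or were the highest of their subgroup in mean CPM, and then for those with the next smallest p, up to 20. *Gdf6* and *Smad9* were added after their values were seen. Of the other pathway genes, those called were named. Alternatives were DESeq2 1.42.0, limma 3.58.1 voom with quality weights, edgeR with unscaled library sizes or with the size factors of DESeq2, a minimum of 10 counts per gene in all libraries, no filter, a replicate block, and each mouse left out. The fits were tested on simulated data. Pathway shares and motif matches are descriptions without a test. Tables were made with Python 3 (pandas and numpy).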

Additional observations from a re-analysis of the deposited data

Results flagged for a closer look

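In each group of 4 mice, a value far from the other 3 by Dixon's test was sought for each of the 51 members. Of 102 groups, 8 held such a value. For independent, normally distributed values, chance alone flags about 1 in 20, or 5.1 of 102. The values tested were unlogged CPM of genes from the same mice, so that number is only a rough guide.

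*Ltbp4* stood out in replicate 1 of both groups, at 95.1 CPM in DMSO replicate 1 with the next mouse at 7.88 CPM, and at 45.2 CPM in SAG replicate 1 with the next at 19.8 CPM. SAG replicate 4 was high in *Smad9*, at 11.6 CPM with the next mouse at 1.35 CPM, and in *Smad6*, at 4.27 CPM with the next at 2.49 CPM. *Grem1* was at 45.5 CPM in DMSO replicate 3, with the next mouse at 12.3 CPM. *Bmp3* was at 29.7 CPM in SAG replicate 1, with the next at 12.5 CPM. *Bmpr1a* was at 49.3 CPM in DMSO replicate 2, with the next at 40.1 CPM. The only low value was that of *Acvr2a* in DMSO replicate 4, at 2.66 CPM with the next mouse at 8.53 CPM.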

How the results depend on the processing

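*Inhba* was called higher in all 15 alternatives, with log2 fold changes of 2.00 to 2.34, and *Acvrl1* in 9 of 15. Members called higher ranged from 1 to 2 when 1 mouse was left out, members called lower from 0 to 3, other pathway genes called higher from 0 to 2, and those called lower from 0 to 7. Members called lower numbered 4 with DESeq2 and 3 with voom. Other pathway genes called higher numbered 1 with DESeq2 and 1 with voom (*Ep300* in both), and those called lower 3 with DESeq2 (*Fn1*, *Dlx5*, and *Itgb8*), 7 with voom, and 2 with at least 10 counts in every sample (*Fn1* and *Itgb8*). The cause of these differences was not tested. Over all genes, DESeq2 called 812 higher and 413 lower, voom 982 and 388, and edgeR without DMSO replicate 4 1017 and 343, beside 404 and 41. At least 10 counts in every sample left out *Bmp4*, *Gdf5*, *Gdf6*, *Gdf11*, *Bmpr1b*, *Acvr2b*, *Smad9*, and *Smad6*.

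With the replicate number as a block, members called higher numbered 1, *Inhba*, and other pathway genes called lower 0. Deviations of DMSO and SAG mice with the same number correlated at 0.120, 0.022, 0.019, and 0.010. Those of mice with different numbers correlated at -0.117 to 0.084. Whether mice of the same number shared anything beyond the number was not tested.

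The sign kept in every alternative for 29 of 51 members. It turned with voom for *Gdf6* (5.02), *Gdf11* (0.56), *Bmpr1b* (-0.24), *Acvr2a* (-0.21), *Smad4* (0.16), *Smad9* (1.31), *Smad6* (0.49), *Id1* (-0.0021), *Id2* (-0.027), *Chrd* (-0.18), *Fst* (0.052), *Fstl3* (-0.071), and *Ltbp4* (0.97). It turned with the replicate block for *Bmp4* (0.14), *Bmp6* (0.092), *Gdf6* (1.75), *Gdf11* (0.24), *Bmpr1b* (-0.31), *Smad4* (0.019), *Smad6* (0.71), *Chrd* (-0.067), *Fst* (0.25), and *Ltbp4* (1.02). With 1 mouse left out, ranges that crossed 0 were those of *Bmp6* (-0.39 to 0.13), *Gdf6* (-0.67 to 0.94), *Gdf11* (-0.77 to 0.22), *Tgfb1* (-0.32 to 0.046), *Tgfb3* (-0.81 to 0.045), *Tgfbr1* (-0.075 to 0.36), *Bmpr1b* (-0.43 to 2.35), *Acvr2a* (-0.11 to 0.50), *Smad4* (-0.24 to 0.23), *Smad6* (-0.79 to 0.13), *Smurf1* (-0.037 to 0.55), *Id1* (-0.054 to 0.29), *Nog* (-0.98 to 0.12), *Chrd* (-0.83 to 0.76), *Grem1* (-0.048 to 1.22), *Fst* (-0.32 to 0.61), *Fstl1* (-0.71 to 0.37), *Fstl3* (-0.12 to 0.72), and *Ltbp4* (-0.70 to 2.02).

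On raw counts in place of CPM per kb, the SAG minus DMSO difference in the share of *Smad1*, *Smad5*, and *Smad9* was -16.04 in place of -15.5 percentage points, that of *Tgfbr1* -6.19 in place of -6.18, and that of *Fstl1* 3.49 in place of 1.34. *Bmp4*, *Gdf5*, and *Acvr2b* rest on few counts and had an SE of 1.27 to 1.86 on the log2 scale.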
